A study of Mus musculus with 13 samples.

Results

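The miR-221 and miR-222 pair was followed as the 4 mature arms of the hairpins mmu-mir-221 and mmu-mir-222 (mir-221 and mir-222 in the following), which were picked by hairpin name, by a rule that uses no measured value but was set with earlier results of these data known. They are 4 of the 1514 pairs of hairpin and mature miRNA, and come from 2 of the 903 hairpins, that received counts in any of the 13 small-RNA libraries of mouse brain. All 4 arms were counted in each of the 13 libraries. The libraries fall into 4 groups. Hippocampus was sequenced from 3 FVB/N and 3 TgR mice, and prefrontal cortex (PFC) from 3 FVB/N and 4 TgR mice. FVB/N is the parent strain and carries no transgene (labelled WT). TgR mice have the same FVB/N background and constitutively overexpress human acetylcholinesterase-R (hACHE-R, the soluble readthrough form of the enzyme that breaks down acetylcholine) from a minimal cytomegalovirus promoter-enhancer. TgR animals were taken without regard to their locomotor behaviour, and neither age nor sex is given in the sources used here for the sequenced mice. The comparisons ask whether the pair differs with the transgene in each region, whether that difference depends on the region, and whether the pair differs between the regions.

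The pair together took 0.313% to 0.451% of a library, whose total lay between 8769851 and 18385985 counts. No pair of libraries in a group was a copy, since their counts differed by 56.7 to 594 times the sampling noise (chi-square per degree of freedom). Neuronal miRNA hairpins, such as those of miR-124 and miR-9, summed to 400500 to 508600 CPM (counts scaled to one common library size) in every library, with all 16 of their listed arms above 0. A miRNA made by several of these hairpins, as miR-124 and miR-9 are, is counted at each. The sum is therefore not a share of distinct reads. Choroid plexus hairpins, including mir-204, set the TgR hippocampus apart. They summed to 5235, 1308 and 4625 CPM in replicates 1, 2 and 3, against 561 to 1188 CPM in the other 10 libraries. Red blood cell hairpins set it apart as well, with lower sums of 601.5, 787 and 918 CPM against 1177 to 2633 CPM. Because the tissue was taken in bulk, fewer cells of a type and less of an miRNA per cell cannot be told apart.

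MiR-221 and miR-222 are made from neighbouring hairpins on the X chromosome that are transcribed together. Each hairpin is cut into a 5p and a 3p arm, of which the 3p arm is usually the one retained in the silencing complex. A miRNA recognises its targets mainly through its seed, here bases 2 to 8, and the 3p arms of the pair carry the same seed, so they share many targets. The best known are Cdkn1b, an inhibitor of the cell cycle, and Kit, a receptor tyrosine kinase. The pair is known for its activity in vessel wall cells and in dividing cells, glioma included, and for its induction by growth factors.

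In the RefSeq annotation of GRCm38.p6, Mir221 lies at chrX:19146294-19146388 and Mir222 at chrX:19146893-19146971, both on the minus strand, with 504 bases between them. Apart from each other, the only gene that GENCODE places within 50000 bases of either hairpin on this assembly was the non-coding Gm14636, on the same strand and 10009 bases away, so both hairpins are intergenic there. The mature sequences, taken from RefSeq, are printed 5′ to 3′ because the pair is defined by its seed, which stands in capitals. The last of the 4 sequences, miR-1928, is the other mature miRNA with this seed, and it was listed in none of the 13 libraries.

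miR-221-3p: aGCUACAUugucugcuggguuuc

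miR-222-3p: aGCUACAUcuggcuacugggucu

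miR-221-5p: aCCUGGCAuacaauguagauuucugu

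miR-1928: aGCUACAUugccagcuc

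Of the 1679 mature sequences compared, miR-221-3p, miR-222-3p and miR-1928 alone had the seed GCUACAU, and no other had the seed CCUGGCA of miR-221-5p. MiR-221-3p and miR-222-3p, both of 23 bases, were identical over their first 8 bases, first differed at position 9, and had 11 of 23 positions in common. Reads of the pair's 3p arms can therefore be told apart by their 3′ portion.

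The 3p arms were by far the main products of both hairpins and were about equally abundant. Over all libraries, miR-222-3p ranked 65 and miR-221-3p ranked 66 of the 1514 pairs by mean CPM, whereas miR-221-5p ranked 208 and miR-222-5p ranked 398. Each of the 3p arms rested on at least 13397 counts in a library, miR-221-5p on 1024 to 2339 counts and miR-222-5p on 94 to 236 counts, so that the last is the least precise. A read covers a whole mature miRNA, so CPM needs no scaling for length, although ligation and amplification can favour some sequences over others.

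MiR-221-3p stood at 2086, 2107 and 1794 CPM in the FVB/N hippocampi and at 2179.7, 2141 and 1765 CPM in the TgR hippocampi. In the PFC it stood at 1422, 1374 and 2056 CPM in FVB/N mice and at 2084, 1542, 1787 and 1963 CPM in TgR mice. Thus, its values overlapped between genotypes in both regions, and the lowest values were those of FVB/N PFC replicates 1 and 2. The group means, from high to low, were 2029 ± 229 CPM in TgR hippocampus (SD, n = 3), 1995 ± 175 in FVB/N hippocampus (n = 3), 1844 ± 235 in TgR PFC (n = 4) and 1618 ± 381 in FVB/N PFC (n = 3), and no neighbours in this order differed beyond their spread.

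MiR-222-3p stood at 2204, 1632 and 1959 CPM in the FVB/N hippocampi and at 2112, 1879.5 and 1733 CPM in the TgR hippocampi. In the PFC it stood at 1708, 1672.5 and 2466 CPM in FVB/N mice and at 2181, 1399, 1916 and 2055 CPM in TgR mice. Its highest value was in FVB/N PFC replicate 3 and its lowest in TgR PFC replicate 2, so that the PFC groups held both extremes. The 4 group means lay close together, at 1949 ± 448 in FVB/N PFC, 1931 ± 287 in FVB/N hippocampus, 1908 ± 191 in TgR hippocampus and 1888 ± 343 CPM in TgR PFC (SD, n = 3, 3, 3 and 4).

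The 5p arms, usually the discarded strands, were lower in every library. MiR-221-5p averaged 119 ± 14.9 CPM in FVB/N hippocampus, 120.2 ± 12.9 in TgR hippocampus, 113 ± 25.7 in FVB/N PFC and 129.7 ± 15.9 CPM in TgR PFC (SD, n = 3, 3, 3 and 4). MiR-222-5p averaged 9.97 ± 1.45, 10.3 ± 1.85, 11.3 ± 1.50 and 12.9 ± 2.15 CPM in the same order of groups. For both 5p arms the highest group was TgR PFC, but its libraries overlapped those of each other group.

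**Figure D1:**
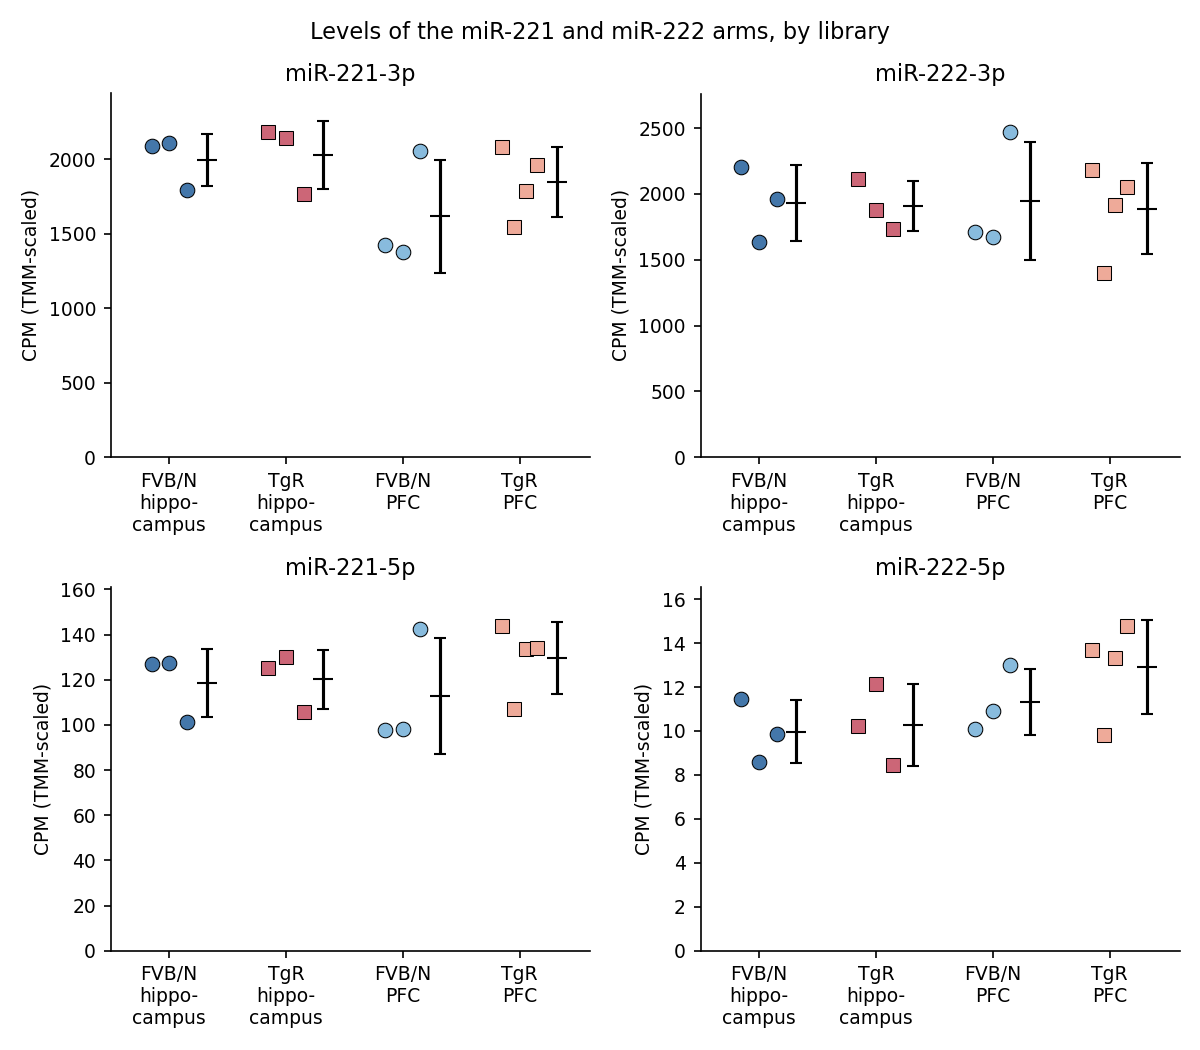
Level of each of the 4 arms in every library, in CPM after TMM scaling (vertical axis, one panel per arm), by group of genotype and region; points are libraries and bars give the mean and SD. The groups overlap for all 4 arms, and FVB/N PFC replicate 3 lies above the other 2 libraries of its group.

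In the hippocampus, none of the 4 arms passed the test between TgR and FVB/N mice (edgeR quasi-likelihood test, Benjamini-Hochberg adjustment over 726 pairs). The log2 difference of TgR minus FVB/N was 0.028 for miR-221-3p (SE 0.14, 95% interval -0.28 to 0.34, adjusted p = 0.93). For miR-222-3p it was -0.0087 (SE 0.14, interval -0.33 to 0.31, adjusted p = 0.99). The intervals allow miR-221-3p a level of 0.823 to 1.26 times, and miR-222-3p one of 0.794 to 1.24 times, that of FVB/N mice. The 5p arms gave 0.021 (SE 0.16, adjusted p = 0.96) for miR-221-5p and 0.047 (SE 0.19, adjusted p = 0.92) for miR-222-5p. Of all 726 pairs tested, 25 passed the threshold of an adjusted p of 0.05, which is 3.44%, and 24.0% had libraries that did not overlap between genotypes, as did 0 of the 4 arms. No arm had an unadjusted p under 0.05 with edgeR or with DESeq2, whereas 17.5% of pairs did with edgeR. Without TgR hippocampus replicates 1 and 3, whose choroid plexus miRNAs were high, the 4 differences were 0.073 for miR-221-3p, 0.10 for miR-221-5p, -0.065 for miR-222-3p and 0.26 for miR-222-5p, with adjusted p values of 0.72 to 0.92 (edgeR). This fit held the 4 hippocampal libraries left, so its spread came from the 3 FVB/N libraries and the lone TgR library was assumed to vary like them.

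In the PFC, 0 of the 4 arms passed the test, beside 1 of 730 pairs (0.137%). The log2 difference of TgR minus FVB/N was 0.16 for miR-221-3p (SE 0.16, 95% interval -0.20 to 0.52), 0.17 for miR-221-5p (SE 0.17, interval -0.21 to 0.56) and 0.16 for miR-222-5p (SE 0.19, interval -0.28 to 0.60). MiR-222-3p gave -0.077 (SE 0.17, interval -0.47 to 0.32), and the adjusted p was 1.00 for all 4 arms (edgeR). Hence the intervals allow miR-221-3p a level of 0.872 to 1.43 times, and miR-222-3p one of 0.72 to 1.25 times, that of FVB/N mice. The absence of changes of this size was not shown. The libraries overlapped between genotypes for all 4 arms, as against 5.21% of pairs with no overlap. Again no arm had an unadjusted p under 0.05 with edgeR or DESeq2, as against 2.60% of pairs with edgeR. Without FVB/N PFC replicate 3, the highest of its group for each of the 4 arms, the difference was 0.36 for miR-221-3p (unadjusted p = 0.020) and 0.36 for miR-221-5p (unadjusted p = 0.043), with an adjusted p of 0.65 for both (edgeR). It was 0.053 and 0.079 without FVB/N PFC replicate 2, and 0.092 and 0.097 without replicate 1.

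The difference between the genotype effects, hippocampus minus PFC, passed the test for 0 of the 4 arms and for 0.533% of 751 pairs. It was -0.17 for miR-221-3p (SE 0.23, adjusted p = 0.97), -0.18 for miR-221-5p (SE 0.25, adjusted p = 0.97), 0.028 for miR-222-3p (SE 0.26, adjusted p = 0.99) and -0.15 for miR-222-5p (SE 0.29, adjusted p = 0.97) on the log2 scale (edgeR, all 13 libraries). The number of arms with an unadjusted p under 0.05 was 0 with edgeR and 0 with DESeq2, beside 8.12% of pairs with edgeR. Without TgR hippocampus replicates 1 and 3 the 4 values were -0.096, -0.080, 0.0018 and 0.091 in the same order.

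**Figure D2:**
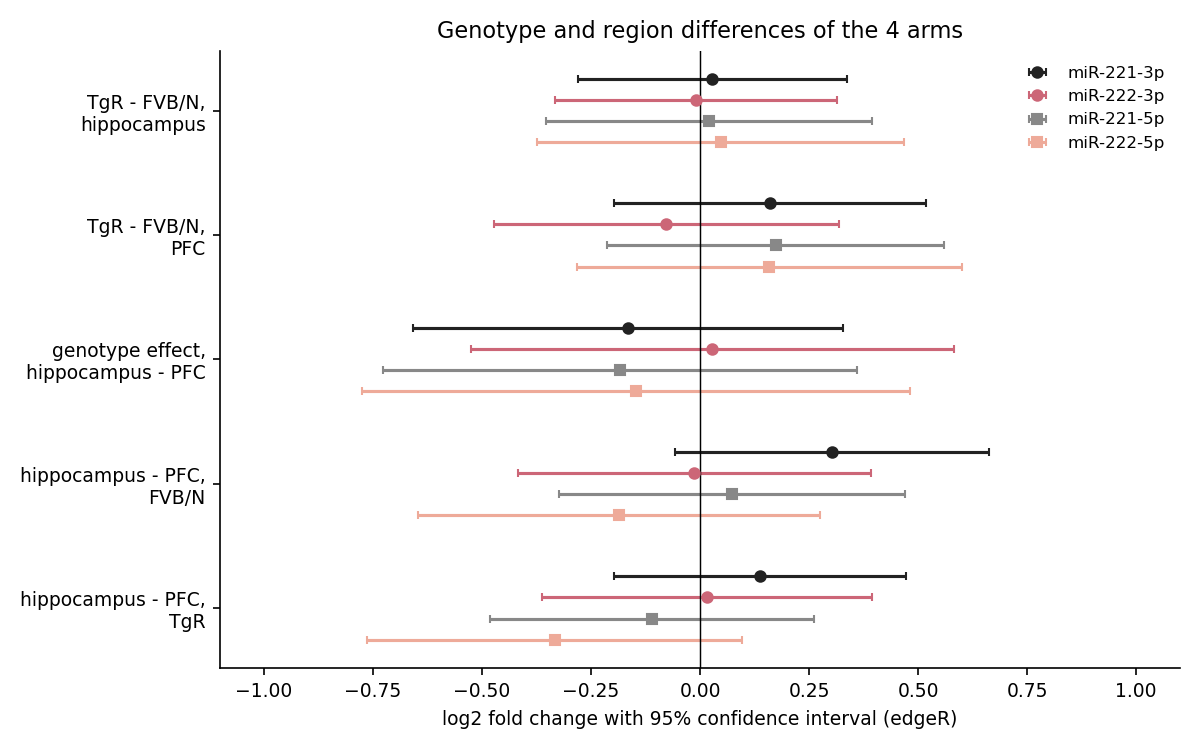
Log2 difference with its 95% interval (horizontal axis) for each of the 4 arms in the 5 comparisons, from the edgeR fits. All 20 intervals include 0, and miR-221-3p between the regions in FVB/N mice (0.30) and miR-222-5p between the regions in TgR mice (-0.33) lie farthest from it.

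Between the regions, the levels of the arms did not pass the test in either genotype. In FVB/N mice, miR-221-3p differed by 0.30 (log2, hippocampus minus PFC, SE 0.17, 95% interval -0.057 to 0.66, adjusted p = 0.36 with edgeR), and miR-222-3p by -0.013 (SE 0.19, interval -0.42 to 0.39, adjusted p = 0.98). Without FVB/N PFC replicate 3 the difference of miR-221-3p was 0.51 with an adjusted p of 0.049. This is the only one of 371 alternative fits of an arm that passed the threshold. Over all pairs, 60 of 776 passed without that library, beside 40 of 751 in the main fit. The 5p arms gave 0.074 for miR-221-5p (SE 0.19, adjusted p = 0.90) and -0.19 for miR-222-5p (SE 0.22, adjusted p = 0.73). In the same comparison 5.33% of 751 pairs passed, and 22.4% did not overlap between regions, as did none of the arms.

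In TgR mice, the differences of hippocampus minus PFC were 0.14 for miR-221-3p (log2, SE 0.16, adjusted p = 0.72), -0.11 for miR-221-5p (SE 0.17, adjusted p = 0.82), 0.015 for miR-222-3p (SE 0.18, adjusted p = 0.96) and -0.33 for miR-222-5p (SE 0.20, 95% interval -0.76 to 0.096, adjusted p = 0.39), by edgeR. Of all pairs, 7.99% passed and 22.5% did not overlap, again with 0 of the 4 arms among them. With an unadjusted p under 0.05 there were 0 arms in either genotype, by edgeR and by DESeq2, beside 20.2% of pairs in FVB/N and 20.1% in TgR mice by edgeR. Without TgR hippocampus replicates 1 and 3 the 4 differences in TgR mice were 0.18, -0.032, -0.038 and -0.12 in the same order.

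While no single arm passed the test of its level between the regions, the proportion of the 3p to the 5p arm of mir-221 differed. A ratio of counts within a library does not depend on how libraries are scaled against each other. In the hippocampus, a library held 16.4, 16.5 and 17.7 counts of miR-221-3p for each count of miR-221-5p in FVB/N mice, and 17.4, 16.5 and 16.7 in TgR mice. In the PFC it held 14.5, 14.0 and 14.4 in FVB/N mice and 14.5, 14.4, 13.4 and 14.6 in TgR mice. All 6 hippocampal libraries therefore lay above all 7 PFC libraries. The log2 ratio averaged 4.08 ± 0.046 in the hippocampus (SD, n = 6) and 3.83 ± 0.046 in the PFC (SD, n = 7), a difference within genotypes of 0.24, or 1.18-fold (exact permutation test of region within genotypes, two-sided p = 0.0014, the smallest that the 700 assignments allow; adjusted p = 0.013 over the 9 ratio tests). It passed the threshold without each of the 13 libraries in turn, with adjusted p values of 0.015 to 0.045. The difference was 0.22 without TgR hippocampus replicates 1 and 3, the libraries of high choroid plexus miRNAs. Replicate 2 was then the only TgR hippocampal library.

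In other terms, miR-221-5p took 5.35% to 5.74% of the counts of mir-221 in the hippocampus and 6.40% to 6.96% in the PFC. The libraries nearest to each other were FVB/N hippocampus replicate 1, at 5.74% (95% Wilson interval 5.48% to 6.02%), and TgR PFC replicate 4, at 6.40% (interval 6.14% to 6.66%), so even these did not meet within counting error. Among 216 hairpins with at least 10 counts of both arms in every library, 6 hairpins (2.78%) had arm ratios that did not overlap between the regions, mir-221 among them. The size of the difference was nevertheless ordinary, since mir-221 ranked 74 and mir-222 ranked 62 of the 216 by size. Hairpin copies of one miRNA, such as those of mir-467a and mir-669a, repeat the same values, so these shares and ranks are not over distinct miRNAs. Of the 216, 1.39% were without overlap and higher in the hippocampus, like mir-221. Between genotypes the arm ratio of mir-221 gave differences of 0.00078 in the hippocampus (n = 3 and 3, exact permutation p = 1.0) and -0.011 in the PFC (n = 4 and 3, exact permutation p = 0.89). Libraries of mir-221 overlapped between genotypes in both regions, where 21.8% of hairpins in the hippocampus and 1.85% in the PFC did not.

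**Figure D3:**
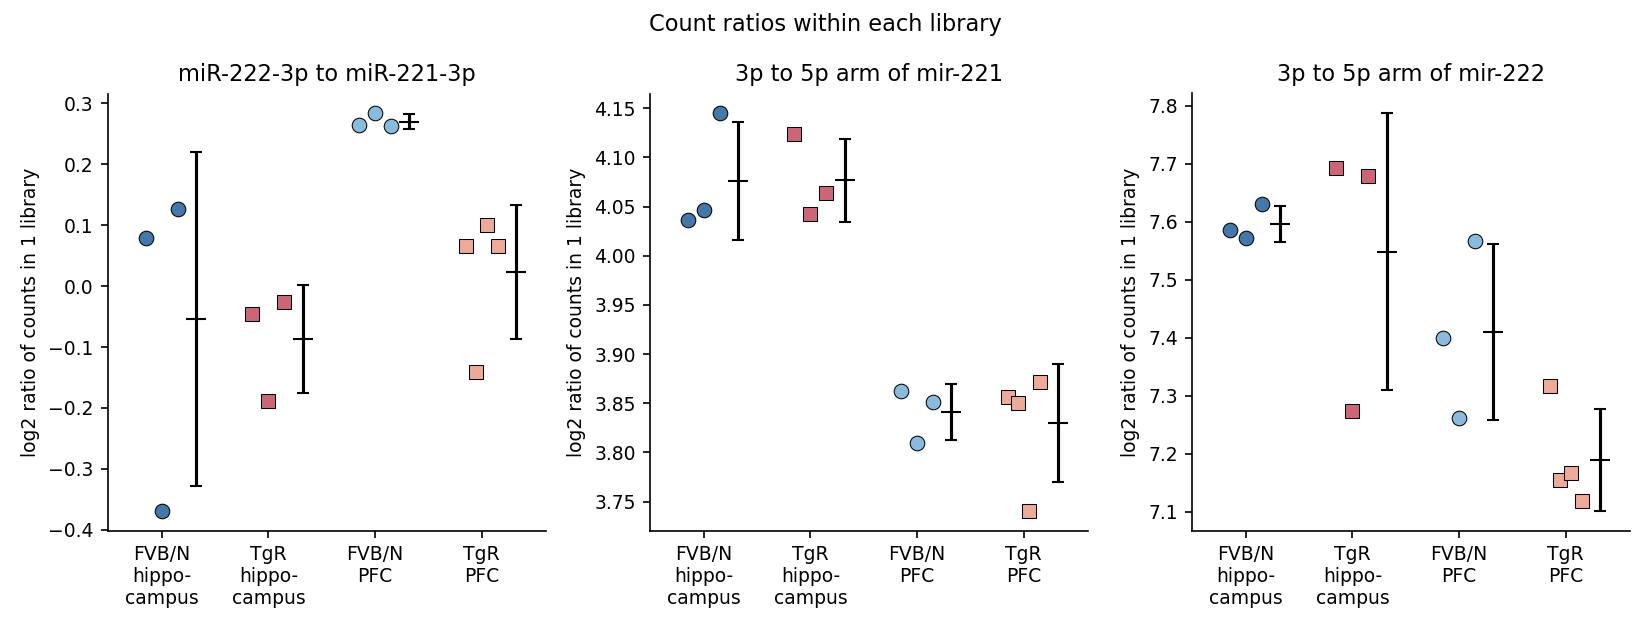
Log2 ratios of counts within each library (vertical axis) by group, for miR-222-3p to miR-221-3p and for the 3p to the 5p arm of mir-221 and of mir-222; points are libraries and bars give the mean and SD. The arm ratio of mir-221 separates the hippocampus (mean 4.08) from the PFC (mean 3.83) with no overlap, while the ratio of miR-222-3p to miR-221-3p is highest in FVB/N PFC.

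The arm ratio of mir-222 moved in the same direction, with more scatter. There were 192, 190.3 and 198 counts of miR-222-3p per count of miR-222-5p in FVB/N hippocampus and 207, 155 and 205 in TgR hippocampus. The PFC had 169, 154 and 189.5 in FVB/N mice and 159.5, 143, 144 and 139 in TgR mice. Here TgR hippocampus replicate 2 fell among the PFC libraries and FVB/N PFC replicate 3 reached toward the hippocampal ones. The log2 ratio averaged 7.57 ± 0.15 in the hippocampus (SD, n = 6) and 7.28 ± 0.16 in the PFC (SD, n = 7), a difference within genotypes of 0.27, or 1.21-fold (exact permutation test, p = 0.0057, adjusted p = 0.026). The adjusted p ranged from 0.015 to 0.075 when each library was left out in turn. It exceeded the threshold without FVB/N hippocampus replicate 2, FVB/N PFC replicates 1 or 2, or TgR PFC replicates 2, 3 or 4. The difference was then 0.24 to 0.28. Fewer libraries leave fewer assignments, so p can rise while the difference stays the same. Without both TgR hippocampus replicates 1 and 3 the difference was 0.14. This left replicate 2, the lowest of its group in this ratio, as the only TgR hippocampal library. The difference was 0.24 without either replicate 1 or replicate 3 alone, and 0.34 without replicate 2. Between genotypes in the PFC the difference was -0.22 (7.19 ± 0.088 in TgR, n = 4, against 7.41 ± 0.15 in FVB/N, n = 3), with an exact permutation p of 0.086 and an adjusted p of 0.15.

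Markers of neurons, oligodendrocytes and choroid plexus also moved with region. The summed level of the neuronal hairpins (8 of 8 listed, 16 arms, with miRNAs of several hairpins counted at each) was 400500 to 441000 CPM in the hippocampus and 470100 to 508600 in the PFC. That of the oligodendrocyte hairpins (3 of 3, 6 arms) was 1383 to 3243 against 624.5 to 965 CPM. Choroid plexus hairpins (4 of 4, 8 arms) gave 908 to 5235 CPM in the hippocampus and 561 to 871 CPM in the PFC. The endothelial and vessel wall hairpins (3 of 3, 6 arms) gave 11170 to 17510 CPM in the hippocampus and 13430 to 20980 CPM in the PFC, which overlap. Red blood cell hairpins (601.5 to 1426 against 1177 to 2633 CPM) and white blood cell hairpins (377 to 471.5 against 460 to 681 CPM) overlapped as well. Within the hippocampus, the red blood cell sums were 601.5 to 918 CPM in TgR and 1292 to 1426 CPM in FVB/N mice, without overlap. No listed arm of these lists was at 0 in any group, and their part in the shift of the arm ratios was not tested.

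**Figure D4:**
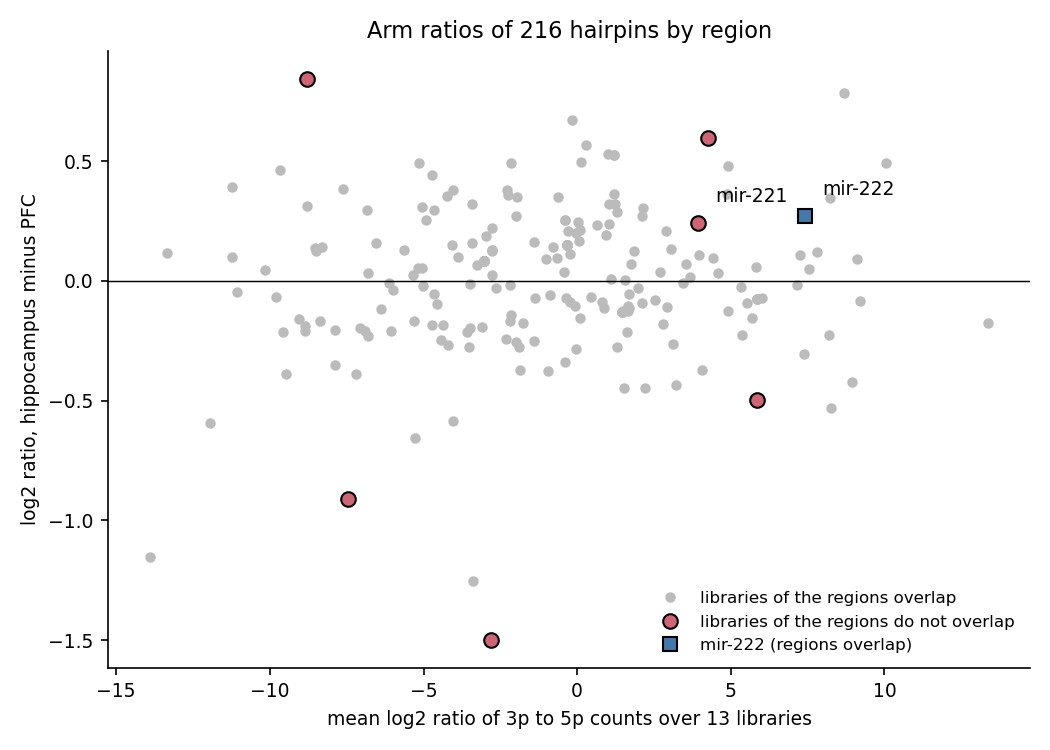
Difference of the log2 ratio of 3p to 5p arm between hippocampus and PFC for 216 hairpins with both arms counted in every library; mir-221 (0.24) and mir-222 (0.27) are named. Their shifts lie within the range of the other hairpins, whose median was 0.038.

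The proportion of the pair's 3p arms to each other also varied, although both come from one primary transcript. MiR-222-3p had 1.06, 0.774 and 1.09 counts for each count of miR-221-3p in FVB/N hippocampus and 0.969, 0.878 and 0.982 in TgR hippocampus. In the PFC the ratio was 1.20, 1.22 and 1.20 in FVB/N mice and 1.05, 0.907, 1.07 and 1.05 in TgR mice. The FVB/N PFC libraries were thus close to one another and above every other library. In the PFC, the log2 ratio was 0.023 ± 0.11 in TgR (SD, n = 4) and 0.27 ± 0.012 in FVB/N mice (n = 3), a difference of -0.25 with no overlap (exact permutation p = 0.029, the smallest that 4 against 3 allows), which did not pass after adjustment over the 9 ratio tests (adjusted p = 0.064). In the hippocampus the difference between genotypes was -0.033 (-0.087 ± 0.088 in TgR against -0.054 ± 0.27 in FVB/N, n = 3 each, exact permutation p = 1.0). The smallest p that 3 against 3 can give is 0.1.

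Among 102 pairs of neighbouring hairpins on one strand within 10000 bases, the ratio of their main arms did not overlap between genotypes in the PFC for 6, or 5.88%, the pair of mir-221 and mir-222 included. In the hippocampus 28.4% did not overlap, and there the ratio of the pair overlapped. The pair's PFC difference was at percentile 58.8 of the 102 by size. Many of the 102 are copies of mir-466, mir-467 and mir-669 hairpins with repeated values, so the shares and the percentile are not over distinct miRNAs. Between the regions the ratio of miR-222-3p to miR-221-3p was lower in the hippocampus (-0.070 ± 0.18, n = 6) than in the PFC (0.13 ± 0.15, n = 7), by 0.22 within genotypes (exact permutation p = 0.014, adjusted p = 0.043), with overlapping libraries. The adjusted p ranged from 0.023 to 0.15 when each library was left out in turn. The call was lost without hippocampal replicate 2 of either genotype, any FVB/N PFC library, or TgR PFC replicates 1, 3 or 4. The difference was then -0.14 to -0.22. With a library left out fewer assignments remain, so p can rise at an unchanged difference. Without both TgR hippocampus replicates 1 and 3 the difference was -0.27, with replicate 2 as the only TgR hippocampal library.

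**Figure D5:**
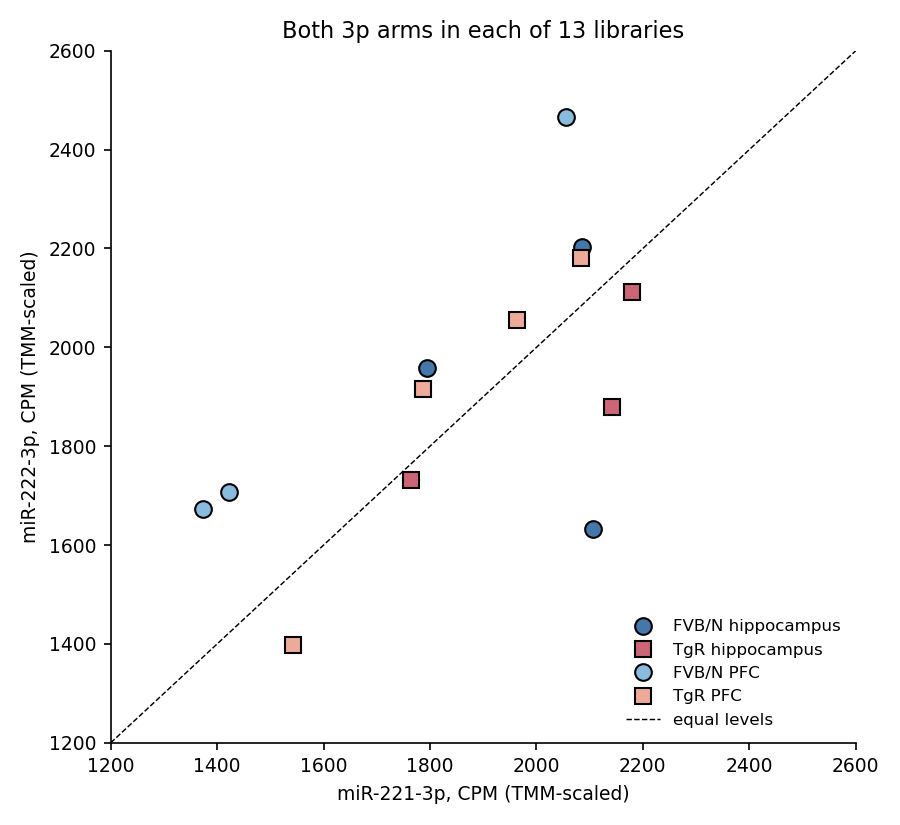
Level of miR-222-3p (vertical axis) against miR-221-3p (horizontal axis), both in CPM, for the 13 libraries by group, with a line of equal levels. The FVB/N PFC libraries lie above the line, at 1.20 to 1.22 counts of miR-222-3p per count of miR-221-3p, and FVB/N hippocampus replicate 2 lies farthest below it (0.774).

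Within the groups the arms of the pair varied together. Taken as deviations from the 4 group means, log2 CPM correlated with r = 0.97 between miR-221-3p and miR-221-5p, r = 0.83 between miR-222-3p and miR-222-5p and r = 0.81 between miR-221-3p and miR-222-3p. The remaining combinations gave r = 0.70 to 0.76. Over the 13 libraries with group means kept, the first 3 r values were lower, at 0.82, 0.61 and 0.64 in the same order. The remaining combinations then gave 0.66, except for 0.27 between miR-221-3p and miR-222-5p. Arms of one hairpin and of neighbouring hairpins share their library and its scaling, and these values are descriptions. The SD within groups was 0.21 for miR-221-3p, 0.22 for miR-221-5p, 0.25 for miR-222-3p and 0.23 for miR-222-5p on the log2 scale, around the median of 0.24 over the 408 pairs with a mean of at least 10 CPM.

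The pair's own arms were left out of the search for like profiles. Those most like miR-221-3p over the 13 libraries, with group means kept, belonged to miR-191-5p (r = 0.83), let-7g-5p (r = 0.83), let-7c-5p at both of its hairpins (r = 0.83 and 0.82) and miR-330-3p (r = 0.82). Those most like miR-222-3p were miR-421-3p (r = 0.87), miR-30e-3p (r = 0.81) and miR-344d-3p, counted at 3 hairpins (r = 0.79). As deviations from group means these r values were 0.72 to 0.84 for the first set and 0.85 to 0.90 for the second. Between miR-221-3p and miR-222-3p themselves, r was 0.64 with group means kept and 0.81 as deviations.

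MiRNAs with which the pair shares settings behaved as follows. The vascular hairpins mir-126a, mir-143 and mir-145a (6 arms), the proliferation clusters of mir-17 and mir-106b (13 or 14 arms tested of 17), and the inflammation and AP-1 induced hairpins mir-21a, mir-146a and mir-155 (3 arms tested of 6) had 0 arms past the test between genotypes in either region. The same holds for the activity induced neuronal hairpins mir-132, mir-212 and mir-134 (6 arms). Of all pairs, 3.44% passed in the hippocampus and 0.137% in the PFC. Their median log2 differences in the hippocampus were -0.15, -0.086, 0.35 and 0.26, against -0.0031 over all pairs, and in the PFC they were -0.016, -0.020, -0.094 and -0.19, against 0.0015.

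Between the regions some arms of the lists passed the test, beside 5.33% of all pairs in FVB/N and 7.99% in TgR mice. In FVB/N mice, 4 of the 6 activity induced arms were lower in the hippocampus, with miR-132-3p at -1.11 (SE 0.19, adjusted p = 0.0047, edgeR) and miR-212-3p at -1.11 (SE 0.30, adjusted p = 0.046). These 4 are the arms of mir-132 and mir-212, neighbouring hairpins 203 bases apart. In TgR mice 2 of the 6 were lower, miR-132-5p and miR-212-5p, and miR-21a-5p, a miRNA induced in growth and inflammation, was higher by 0.84 (SE 0.16, adjusted p = 0.0038). No vascular or proliferation arm passed in either genotype. Of the 54 arms of X-chromosome hairpins tested in the hippocampus (the 4 arms of the pair among them), 3 passed beside 25 of all 726 pairs (3.44%). These 3 were higher in TgR than in FVB/N mice and came from mir-448, mir-1298 and mir-1264, which are also choroid plexus hairpins whose summed level set TgR hippocampus replicates 1 and 3 apart. In the PFC 0 of 55 such arms passed between genotypes (edgeR), where 1 of all pairs did. Between the regions 0 of 58 X-chromosome arms passed in FVB/N mice. In TgR mice 3 of the 58 were called higher in the hippocampus, again from mir-448, mir-1298 and mir-1264, and 1 lower, miR-881-3p. The tested X-chromosome hairpin nearest to the pair, mir-1198, lies 11.3 Mb away.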

How the data were processed

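Small RNA was sequenced from 13 bulk tissue samples, 1 mouse each where the labels say so (PFC), and the hippocampal titles only carry numbers. Per the study's methods the authors checked reads with FastQC 0.11.8 and aligned them with miRExpress 2.0 to miRBase 21 at default settings, and they tested genotypes with DESeq2. The deposited values are raw counts per pair of hairpin and mature miRNA, without molecular identifiers, so intervals of shares cover counting error only. A miRNA made by several hairpins is listed at each, which touches the counts of none of the 4 arms. It does enter the library totals and the shares and ranks over all pairs or hairpins.

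The members and lists were chosen with earlier results of these data known. From the counts, edgeR 4.0.16 (R 4.3.3) was run with TMM scaling, filterByExpr (minimum count 10) and the quasi-likelihood test, by region for genotype and over all 13 libraries for region and interaction, with Benjamini-Hochberg adjustment over all pairs tested. Log2 CPM used a prior count of 2. Per-library ratios were compared by two-sided exact permutation tests, adjusted over 9 tests. The smallest possible p is 0.1 for 3 against 3 and 0.029 for 4 against 3. Arm and neighbour backgrounds were added after the ratios were seen. Named miRNAs were the 4 arms, those sharing a seed, the 5 pairs of highest r to each 3p arm, and the fixed lists. Code was tested on simulated data. Alternatives were DESeq2 1.42.0, other scaling and filters, 1 row per mature miRNA, other library sets, a replicate block and leaving out each library. Sequences came from RefSeq (GRCm38.p6), which matched 766 of 903 hairpins. Libraries are taken as separate mice, and p-values measure the spread between them.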

Additional observations from a re-analysis of the deposited data

Results flagged for a closer look

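Of the 7 sets of values examined in the 4 TgR PFC libraries (4 arms and 3 ratios), 2 held a library far from the others by Dixon's test at its 95% critical value. Chance flags about 1 in 20 such sets. The log2 ratio of miR-222-3p to miR-221-3p was -0.14 in replicate 2, the shallowest library of all, and 0.07 to 0.10 in the other 3, so that the gap took 0.857 of the range. The log2 ratio of the 3p to the 5p arm of mir-221 was 3.74 in replicate 3 and 3.85 to 3.87 in the other 3, with a gap of 0.841 of the range.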

How the results depend on the processing

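Of 371 alternative fits of the 20 arm differences, 339 kept their direction and 32 changed it. The 1 fit past the threshold was miR-221-3p between regions in FVB/N mice without FVB/N PFC replicate 3. All reversals were of small differences, and their cause was not tested. The hippocampal genotype difference of miR-222-3p was 0.068 at library size only and 0.025 with no filter. The region difference of miR-222-3p in FVB/N mice was 0.027 with no filter, 0.0025 with 1 row per mature miRNA and 0.0042 with FVB/N libraries only. In TgR mice that of miR-221-5p was 0.021 at library size only and 0.031 with no filter. An alternative chosen after seeing the data left out both TgR hippocampus libraries of high miR-204 (replicates 1 and 3). Then the difference between genotype effects of miR-222-5p was 0.091, the region difference of miR-222-3p in TgR mice -0.038, and the hippocampal genotype difference of the mir-221 arm ratio -0.034, while the region difference of the mir-222 arm ratio was 0.14, past the threshold no longer. Adding 0.5 counts to the ratios changed no call. A filter at a mean of 300 normalized counts left out miR-222-5p.

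With each library left out in turn, the hippocampal genotype differences ran from -0.086 to 0.11 for miR-221-3p, -0.12 to 0.095 for miR-221-5p, -0.15 to 0.040 for miR-222-3p and -0.079 to 0.16 for miR-222-5p, and those in the PFC from 0.053 to 0.36 for miR-221-3p, 0.079 to 0.36 for miR-221-5p, -0.18 to 0.12 for miR-222-3p and 0.098 to 0.26 for miR-222-5p. The difference between genotype effects ran from -0.34 to -0.013 for miR-221-3p, -0.13 to 0.17 for miR-222-3p and -0.26 to 0.043 for miR-222-5p. Region differences in FVB/N mice ran from 0.15 to 0.51 for miR-221-3p, -0.062 to 0.27 for miR-221-5p and -0.16 to 0.18 for miR-222-3p, and in TgR mice from -0.10 to 0.092 for miR-222-3p and -0.44 to -0.20 for miR-222-5p, the last lowest without TgR PFC replicate 2 (edgeR, unadjusted p = 0.037, adjusted p = 0.18). The other 3 region differences kept their direction. The ratio of miR-222-3p to miR-221-3p ran from -0.19 to 0.058 between genotypes in the hippocampus and -0.26 to -0.14 between regions. The arm ratio of mir-221 ran from -0.023 to 0.035 between genotypes in the hippocampus and -0.027 to 0.018 in the PFC, and that of mir-222 from -0.12 to 0.089 between genotypes in the hippocampus and 0.24 to 0.34 between regions.

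Replicate numbers were not taken to pair the samples. Deviations of same-numbered libraries correlated from -0.22 to 0.41, between regions of FVB/N mice from 0.050 to 0.19, and in no comparison were all over 0.1. The labels do not say whether both regions came from the same mice, and the numbers of the FVB/N PFC libraries differ between titles and files. With the replicate number as a block, 0 of the 20 arm differences passed (smallest adjusted p = 0.37, edgeR; values of -0.25 to 0.31), and over all pairs the block gave 9 calls in place of 25 between genotypes in the hippocampus. DESeq2 called 56 pairs there, 23 in place of 4 for the difference between genotype effects and 84 in place of 40 between the regions in FVB/N mice, with none of the 4 arms among them. Without the filter these counts were 63, 13 and 69, and with only FVB/N libraries the last was 24. Without both libraries of high miR-204 the calls fell to 1 in the hippocampus, 0 for the difference between effects and 7 between regions in TgR mice in place of 60. The 25 hippocampal calls were likewise 1 without FVB/N hippocampus replicate 3, 9 without TgR replicate 3, 12 without FVB/N replicate 1 and 17 to 28 without each of the other 3.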
